A study of Mus musculus with 2 samples.

Results

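The mitochondrial carriers described here are 45 genes of the solute carrier family SLC25 in the deposited table, 44 with symbols that start with Slc25a and the gene named Ucp2. They were chosen by symbol after RefSeq transcript identifiers had been matched to mouse genes, out of 16881 transcripts in all, and each was represented by 1 transcript. Total RNA was sequenced as 1 library from immortalised embryonic fibroblasts of the genotype p65-/- (here p65-null) and 1 from those of the genotype p65+/+ (here wild-type), both labelled with the mouse strain C57BL/6. p65, the product of Rela, is a DNA-binding subunit of the transcription factor NF-kB. The sources used here give no stimulus, passage number, route of immortalisation or number of founding embryos. Since each genotype had 1 library, differences between genotypes and differences between these cell lines cannot be told apart, and no p-value is given. The p65-null library held 30882788 reads and the wild-type library 41588951, and a fragment below is 2 reads, so that a mate counted alone gives 0.5. The family members Slc25a31, Slc25a48 and Slc25a54 were not analysed here. Ucp3, Mtch1 and Mtch2, of the same family under other names, were placed with the other carriers and channels of the mitochondrial membranes.

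SLC25 proteins sit mostly in the inner mitochondrial membrane, which is otherwise closed to charged metabolites. Each is built from repeated pairs of membrane helices around a central binding site that opens to one side and then the other, and most exchange one solute for another. Through them pass ADP and ATP, phosphate, the acids of the citric acid cycle, amino acids, carnitine esters, cofactors and iron. The uncoupling proteins belong to the same family, and in fibroblasts the carriers link glycolysis, amino acid use and cofactor supply in the cytosol to the mitochondrial matrix.

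Levels are given as CPM, fragment counts scaled to a common library total, and as CPM per kilobase of transcript where genes are compared with each other. A gene was called measured when its CPM averaged at least 1 over both libraries. Ratios are p65-null over wild-type, with exact Clopper-Pearson intervals at 95% that cover counting error in these libraries only. Because the ratio moved with transcript composition, each is also given, where it matters, as a composition-adjusted ratio, from which a smooth trend on GC content and then on length over all measured genes had been taken away. Rela, the targeted gene, had 13.1 CPM in the p65-null library against 90.5 CPM in the wild-type library, a log2 ratio of -2.79 (-3.01 to -2.58). All 12 fibroblast markers looked up were measured, 9 above and 3 below 0, with log2 ratios from -3.10 for Thy1 to 3.64 for S100a4. Their summed level was 29865 CPM in the p65-null and 14735 CPM in the wild-type library, most of it collagen, Sparc, Vim and Fn1 RNA. Of the markers of other cell types, 1 of 6 epithelial, 3 of 7 leukocyte and 1 of 7 endothelial genes in the table were measured, with summed levels of those measured of 48.6, 9.51 and 1.91 CPM in the p65-null library against 16.8, 20.5 and 3.26 CPM in the wild-type library. Among single markers, Epcam, Ptprc and Pecam1 had at most 2 fragments in either library. The epithelial genes Krt19, Krt18 and Cdh1 had 736, 23 and 11 fragments in the p65-null library against 355.5, 0 and 0 in the wild-type library. The 3 measured leukocyte genes did not move together. Cd14 and Csf1r had 66.5 and 16 fragments in the p65-null library against 361 and 44 in the wild-type library. Cd68 went the other way, with 61.5 in the p65-null against 29 in the wild-type library. The part of such cells in the carrier values was not tested. In such bulk libraries, fewer cells of a type and less RNA per cell cannot be told apart.

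Of the 45 carriers, 38 were measured. Among these, 8 differed by 2-fold or more in either direction, where 25.9% of all 12135 measured genes did. They were made up of 3 that were higher in the p65-null library (7.89%), namely Slc25a43, Slc25a45 and Slc25a42, where 12.2% of all measured genes were higher by that much, and of 5 that were lower (13.2%), Slc25a33, Slc25a46, Slc25a24, Slc25a32 and Slc25a36, where 13.7% of all measured genes were lower by that much. The remaining 30 lay within 2-fold. The 3 higher carriers passed the minimum only through the p65-null library, where they had 3.37, 4.98 and 1.68 CPM against 0, 0.708 and 0.401 CPM in the wild-type library, and with a minimum of 5 CPM none was left, so their count is a description. The count of 5 lower carriers became 2 of 38 when composition-adjusted, beside 1222 of 11989 genes. These were Slc25a33, which stayed, and Slc25a25, which lay within 2-fold before. With scaling to ribosomal protein genes 13 carriers were lower, beside 3306 of all genes, where 1667 were lower with the main scaling. The median log2 ratio of the carriers was -0.18, beside -0.03 over all measured genes, and 22 of 38 lay below 0, where 51.2% of all measured genes did. The counting interval left out a ratio of 1 for 27 of the 38, where it did so for 79.3% of all measured genes. The whole interval lay past 2-fold for Slc25a43 and Slc25a45 on the higher side, where 7.95% of all measured genes did so, and for Slc25a33, Slc25a46, Slc25a24 and Slc25a32 on the lower side, where 9.1% did. Ribosomal protein scaling, which moved the median of all genes by -0.47, put 9 of the 16 carriers above 0 below it, among them Slc25a1, Slc25a4, Slc25a10, Slc25a12, Slc25a17, Slc25a27, Slc25a28 and Slc25a39.

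**Figure D1:**
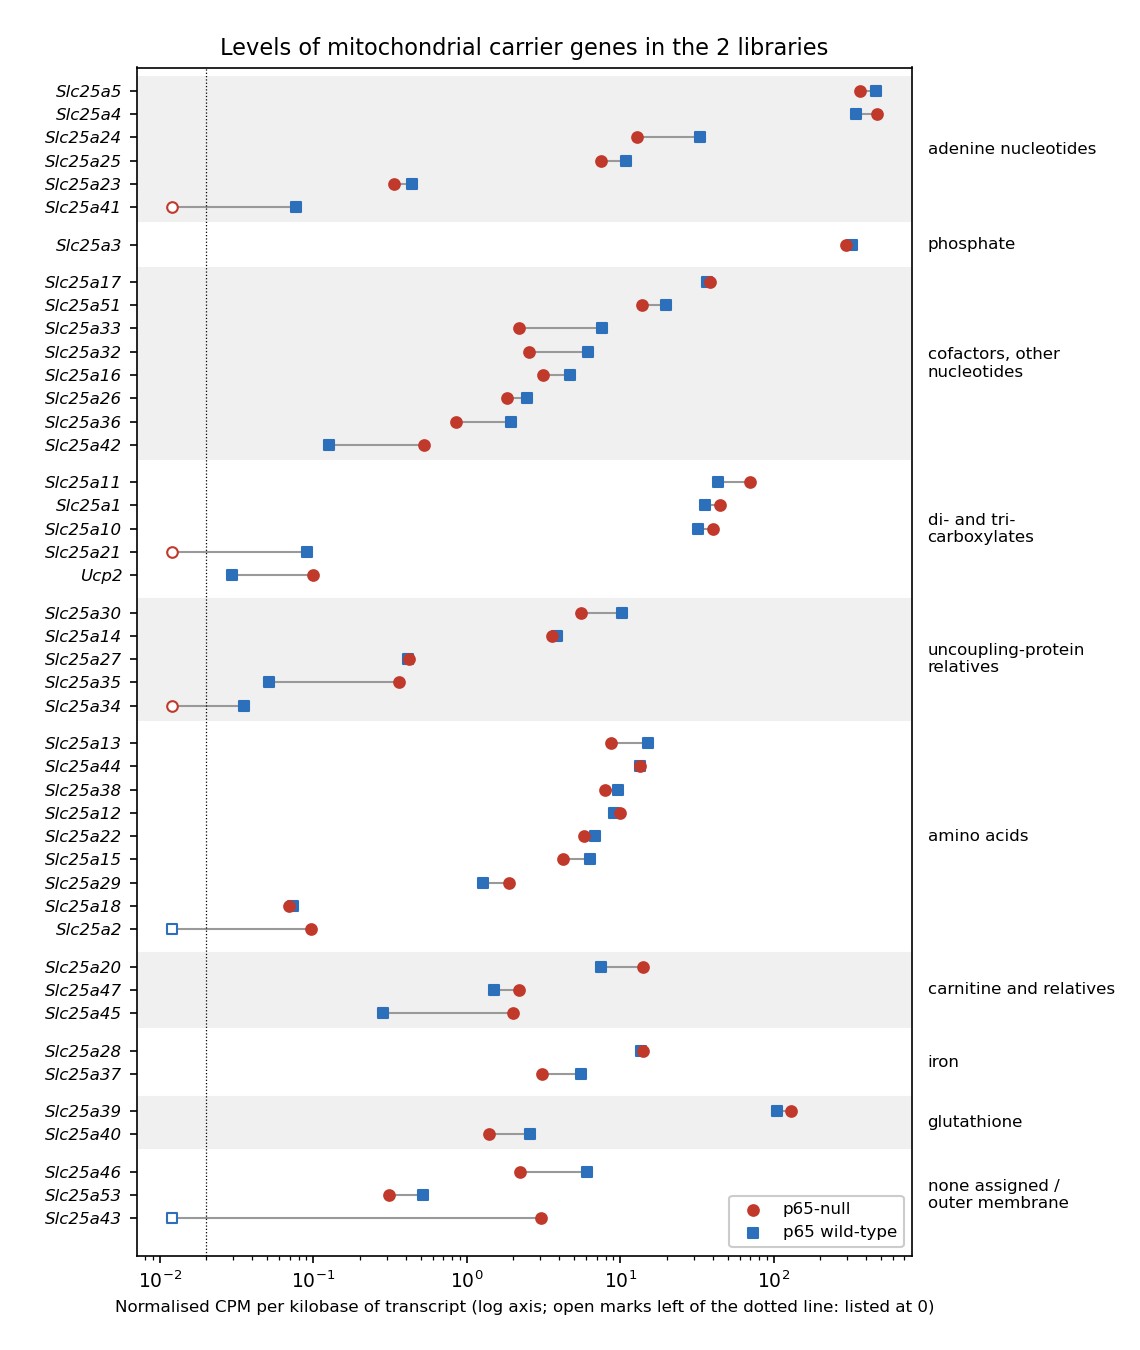
Level of each carrier gene described here in the p65-null (circles) and wild-type (squares) library, as normalised CPM per kilobase of transcript on a log axis, grouped by the substrate known for the carrier. Slc25a4, Slc25a5 and Slc25a3 lie far to the right of all others in both libraries, and open marks left of the dotted line stand for genes listed at 0.

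The order of the levels per length was set by a few genes in both libraries. Slc25a4, Slc25a5 and Slc25a3, which carry the substrates of ATP synthase, together made up 70.1% of the summed carrier level per kilobase in the p65-null library and 71.0% in the wild-type library. The sum over all carriers was 1603 CPM per kilobase in the p65-null library against 1584 CPM per kilobase in the wild-type library. Slc25a39, a carrier needed for glutathione import, came next with 130.05 and 104 CPM per kilobase in the p65-null and wild-type library, and Slc25a11, the oxoglutarate carrier, was the fifth in both.

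Among the carriers of adenine nucleotides, the main ADP/ATP exchangers lay on opposite sides of 0. Slc25a4, which encodes the isoform ANT1 that is predominant in heart and skeletal muscle, had 900.1 CPM in the p65-null library against 659 CPM in the wild-type library, a log2 ratio of 0.45 (0.42 to 0.48). Slc25a5, which encodes the isoform ANT2 of growing cells and lies on the X chromosome, had 448 CPM in the p65-null library against 573 CPM in the wild-type library, a log2 ratio of -0.36 (-0.40 to -0.31). Per kilobase, Slc25a4 stood at 1.30 times Slc25a5 in the p65-null library and at 0.741 times in the wild-type library, so their order was turned round. With the scaling used here their sum was nearly the same. It was 829 CPM per kilobase in the p65-null library and 804 CPM per kilobase in the wild-type library. The coding sequences of the pair were 77.4% identical, and the sources used here do not say how reads that match both were assigned. Scaling to ribosomal protein genes put Slc25a4 at -0.02 and Slc25a5 at -0.83, so the near match of the sums depends on scaling. The difference of 0.81 between the log2 ratios of the pair does not depend on scaling and was 0.56 when composition-adjusted.

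The ATP-Mg/phosphate carriers, which set the adenine nucleotide content of the matrix and are gated by calcium, were below 0 for all 3 measured. Slc25a24 (NM_172685, chromosome 3, 109123149 to 109168409) was the most abundant of them per kilobase, at 44.0 CPM in the p65-null library against 114 CPM in the wild-type library. It was 2.59-fold (2.37 to 2.82) lower in p65-null cells, and its composition-adjusted log2 ratio was -0.79. Its relatives Slc25a25 and Slc25a23 were at -0.54 (-0.73 to -0.36) and -0.41 (-1.35 to 0.49), and the composition-adjusted ratio of Slc25a25 was -1.016. Slc25a25 shares 379 exonic bases with Naif1 on the opposite strand. Slc25a41 had 0 fragments in the p65-null and 2 in the wild-type library. The phosphate carrier Slc25a3, which supplies ATP synthase with phosphate and also carries copper, was at 477 CPM in the p65-null library and 517 CPM in the wild-type library, a log2 ratio of -0.12 (-0.16 to -0.07).

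Carriers of cofactors and of other nucleotides held 4 of the 8 members past 2-fold, 3 lower and 1 higher among 9 measured, where 25.9% of all measured genes were past 2-fold. Of these 4, 2 were past 2-fold when composition-adjusted and 2 had a whole interval past it. Both carriers of pyrimidine nucleotides, which bring building blocks for mitochondrial DNA and RNA into the matrix, were on the lower side. Slc25a33 (NM_027460, chromosome 4, 149744036 to 149774267) had 62.5 fragments in the p65-null library against 305.5 in the wild-type library, or 4.13 CPM in p65-null against 14.4 CPM in wild-type cells. It was 3.49-fold (2.65 to 4.66) lower in p65-null cells, the largest difference on that side among the measured carriers, and its composition-adjusted log2 ratio was -2.24. An annotated gene on the opposite strand, Gm13068, shares 281 exonic bases with it, and the sources used here do not say if reads were counted by strand. Slc25a36 (NM_138756, chromosome 9, 97075281 to 97111041) had 67.5 fragments in p65-null against 214 in wild-type cells, or 4.46 CPM in the p65-null library and 10.1 CPM in the wild-type library, and was 2.27-fold lower (1.72 to 3.02). Composition-adjusted, Slc25a36 was at -0.28, so the pair was less alike on that scale. Their coding sequences were 66.2% identical.

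The start regions of this pair of carriers are shown because both members were past 2-fold in the same direction and both held an E-box, CACGTG, the site of the Myc and USF factors. The windows run from 250 bases before to 50 after the annotated start, are given 5′ to 3′ on the gene's strand from RefSeq with the build GRCm38.p6, and carry matches in capitals. The Slc25a33 window is chr4:149774218-149774517 on the minus strand. The Slc25a36 window is chr9:97110992-97111291 on the minus strand and also held a cyclic AMP response element, TGACGTCA.
Slc25a33: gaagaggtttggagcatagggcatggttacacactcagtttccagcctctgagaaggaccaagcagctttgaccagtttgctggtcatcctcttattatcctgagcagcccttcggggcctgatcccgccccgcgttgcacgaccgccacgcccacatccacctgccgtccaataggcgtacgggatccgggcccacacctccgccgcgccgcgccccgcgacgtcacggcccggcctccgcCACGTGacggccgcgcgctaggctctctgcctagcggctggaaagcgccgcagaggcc
Slc25a36: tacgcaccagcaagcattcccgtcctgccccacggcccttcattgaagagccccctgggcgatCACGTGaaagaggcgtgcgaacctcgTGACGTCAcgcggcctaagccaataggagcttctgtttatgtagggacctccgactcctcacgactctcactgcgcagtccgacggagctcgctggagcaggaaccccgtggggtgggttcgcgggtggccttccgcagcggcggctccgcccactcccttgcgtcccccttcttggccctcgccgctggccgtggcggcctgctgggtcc

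Windows were used for 34 of the 45 carriers, and both strands were searched. Slc25a46, Slc25a32 and Slc25a2 were among those left out, so 3 of the 5 lower carriers were searched, and all 3 higher ones. An E-box was found for 6 of these 34 genes, against 8.09% of all 27025 genes in the table of windows, and the cyclic AMP response element for 2 of 34, against 2.03%. The others with an E-box were Slc25a1, Slc25a13, Slc25a14 and Slc25a15, all within 2-fold. Of the 3 lower carriers searched, Slc25a24 held neither motif, nor did any of the 3 higher ones. The consensus site of NF-kB itself, the kappaB motif, was found for 3 of 34 carriers against 9.55% of all genes, and none of these 3 was past 2-fold. The matches are shown with 10 bases on each side, the motif in capitals, and the Slc25a10 match reads on the strand opposite to the gene. They come from chr16:17928360-17928389 on the minus strand for Slc25a1, chr11:120491797-120491826 on the plus strand for Slc25a10 and chr15:81360893-81360922 on the minus strand for Slc25a17.
Slc25a1: cgcctccggcGGGGTTCTCCgtctccccgg
Slc25a10: gaccagaggcGGAGTCTCCCaaggctggag
Slc25a17: tcgatgttcaGGGGCGTTCCtgggcatttc
The log2 ratios of these genes were 0.31 for Slc25a1, 0.33 for Slc25a10 and 0.08 for Slc25a17. A letter match describes the sequence and does not show binding. Of the other motifs, the ETS core CCGGAAGT was found for 1 carrier, Slc25a20, and the NRF1 motif for 1, Slc25a3, against 4.31% and 5.19% of all genes.

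Slc25a32, the carrier of folate and FAD (NM_172402, chromosome 15, 39091230 to 39112720), was counted at 227.5 fragments in p65-null cells and 764 in wild-type cells. At 15.02 CPM in the p65-null library against 36.04 CPM in the wild-type library its log2 ratio was -1.26 (-1.48 to -1.05), or -0.36 when composition-adjusted. The carriers linked to coenzyme A had different values. Slc25a42 (NM_001007570, chromosome 8, 70184340 to 70212281), which exchanges coenzyme A for adenine nucleotides, had 25.5 fragments in p65-null against 8.5 in wild-type cells and was 4.20-fold (1.87 to 10.5) higher in p65-null cells. Its level stayed low, at 0.527 CPM per kilobase in the p65-null library and 0.125 CPM per kilobase in the wild-type library. Slc25a16, linked to coenzyme A supply, had a log2 ratio of -0.57 (-0.86 to -0.29), or -0.07 when composition-adjusted. Other members of the group within 2-fold were the NAD carrier Slc25a51 at -0.51 (-0.63 to -0.40), the S-adenosylmethionine carrier Slc25a26 at -0.45 (-0.95 to 0.05) and the peroxisomal carrier Slc25a17 at 0.08 (-0.04 to 0.20). Slc25a26 shares 144 exonic bases with Lrig1 on the opposite strand, which was counted at 778.5 fragments in p65-null cells and 4270 in wild-type cells.

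**Figure D2:**
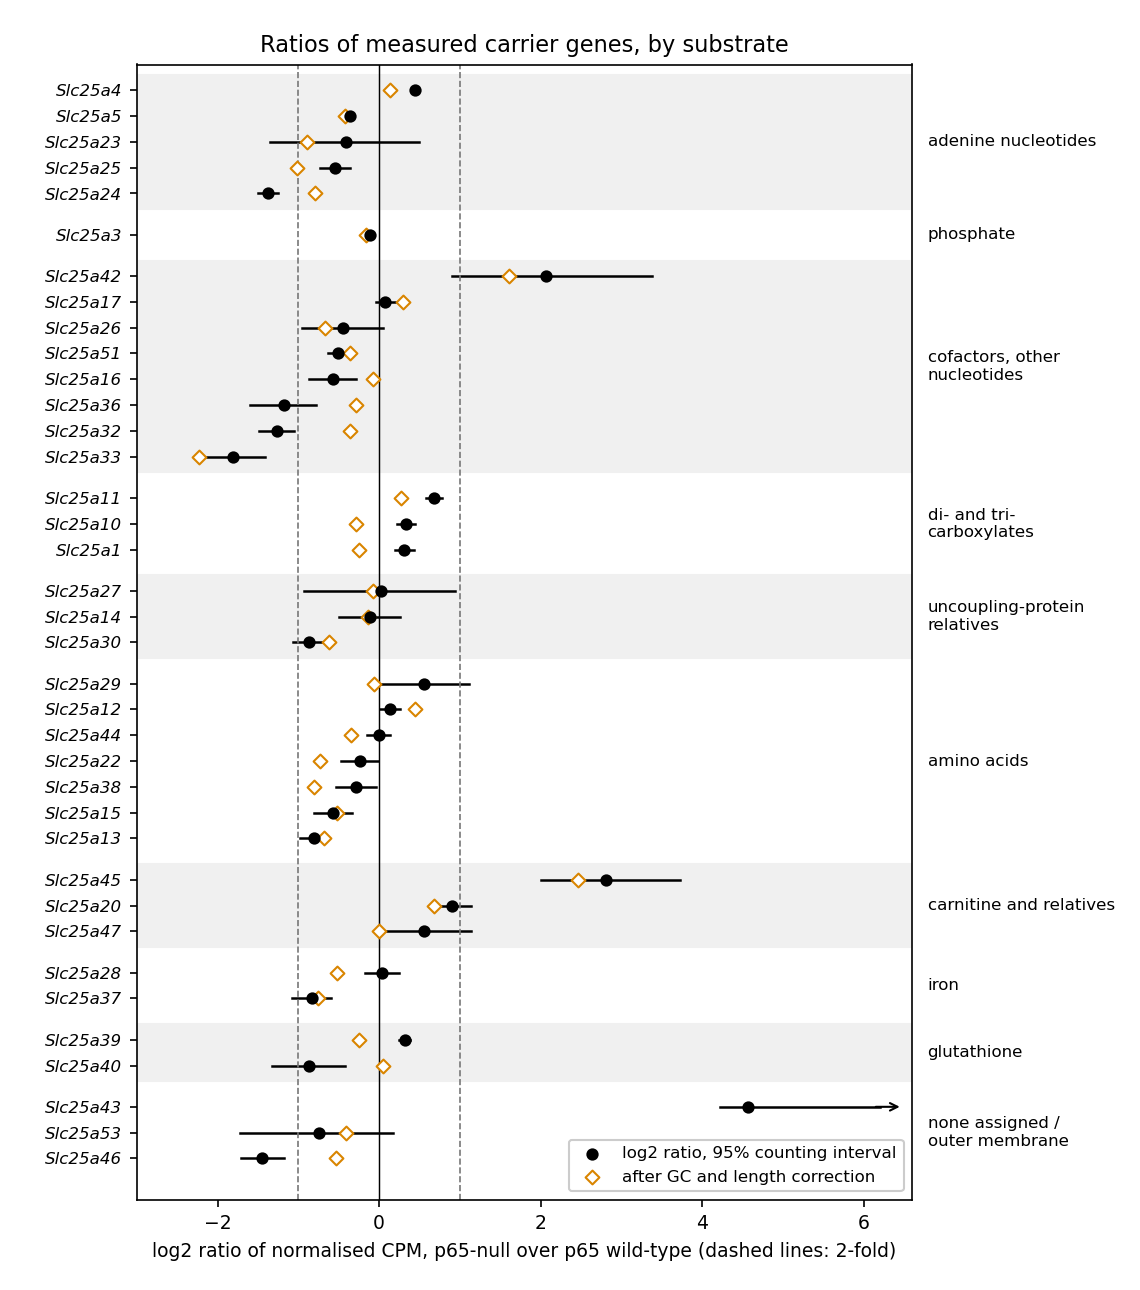
log2 ratio of each measured carrier described here, p65-null over wild-type, by substrate (filled circles, with 95% counting intervals), and the composition-adjusted ratio (open diamonds). Dashed lines mark 2-fold, the arrow marks Slc25a43, whose point is drawn at the floor and whose interval has no upper end, and 4 of the 5 members 2-fold or more lower lie inside the lines when adjusted.

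The 3 measured carriers of citric acid cycle acids were above 0 and within 2-fold. Slc25a11, which exchanges oxoglutarate for malate in the malate-aspartate shuttle, had 119 CPM in the p65-null library against 74.0 CPM in the wild-type library, a log2 ratio of 0.69 (0.59 to 0.78), or 0.27 when composition-adjusted. It shares 189 exonic bases with Rnf167 on the opposite strand, which had 377 and 240.5 fragments in the p65-null and wild-type library. The dicarboxylate carrier Slc25a10 was at 0.33 (0.22 to 0.44) and the citrate carrier Slc25a1, which exports citrate for lipid synthesis, at 0.31 (0.19 to 0.43). These directions turned with the processing: Slc25a10 and Slc25a1 were at -0.29 and -0.24 when composition-adjusted and at -0.14 and -0.16 when scaled to ribosomal protein genes. The oxodicarboxylate carrier Slc25a21 had 0 fragments in the p65-null and 5 in the wild-type library. Ucp2, which exports acids such as malate and aspartate, had 6 fragments in the p65-null and 2.5 in the wild-type library and was under the expression minimum.

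The partners of Slc25a11 in the shuttle are the aspartate/glutamate carriers, whose members differed. Slc25a13, which encodes citrin, had 27.1 CPM in the p65-null library against 47.5 CPM in the wild-type library, a log2 ratio of -0.81 (-0.98 to -0.64). Slc25a12, which encodes aralar, had 63.0 CPM in the p65-null library and 57.4 CPM in the wild-type library, a log2 ratio of 0.13 (0.01 to 0.26). Slc25a13 was the more abundant per kilobase in the wild-type library, at 15.2 against 9.04 CPM per kilobase for Slc25a12. In the p65-null library Slc25a13 had 8.67 and Slc25a12 9.92 CPM per kilobase, so their levels were close there. The difference between their log2 ratios, Slc25a12 minus Slc25a13, was 0.94, and 1.12 when composition-adjusted. The shuttle's enzymes in the cytosol were divided as well, with Got1, the aspartate aminotransferase, at a log2 ratio of -1.11 (-1.25 to -0.97) and the malate dehydrogenase Mdh1 at a log2 ratio of 0.61 (0.54 to 0.68). Their matrix forms Got2 and Mdh2 were at -0.14 (-0.20 to -0.08) and -0.55 (-0.61 to -0.49).

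None of the 7 measured amino acid carriers was past 2-fold, and 5 lay below 0. Besides the aspartate/glutamate pair, the ornithine carrier of the urea cycle, Slc25a15, was at -0.57 (-0.81 to -0.34), the glycine carrier Slc25a38, which feeds haem synthesis, at -0.28 (-0.53 to -0.03) and the glutamate carrier Slc25a22 at -0.24 (-0.47 to -0.01). Slc25a29, a carrier of basic amino acids, was at 0.55 (-0.02 to 1.12). Composition-adjusted, Slc25a29 was at -0.06, Slc25a15 at -0.52, Slc25a38 at -0.80 and Slc25a22 at -0.73. Slc25a44, the carrier of branched-chain amino acids, had 47.7 CPM in the p65-null library and 47.8 CPM in the wild-type library, a log2 ratio of -0.0035 (-0.14 to 0.14), which was 0.11 with upper quartile scaling, -0.34 when composition-adjusted and -0.47 with scaling to ribosomal protein genes. The enzymes that break these amino acids down in the matrix had other values. The aminotransferase Bcat2 and the keto acid dehydrogenase subunits Bckdha and Bckdhb were higher in p65-null cells. Their log2 ratios were 1.69 (1.42 to 1.96), 1.76 (1.52 to 1.999) and 1.49 (1.11 to 1.88), or 1.11, 1.16 and 1.31 when composition-adjusted. Slc25a18, a second glutamate carrier, had 2 fragments in the p65-null and 3 in the wild-type library, and Slc25a2, a second ornithine carrier, had 2 in the p65-null and 0 in the wild-type library.

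All 3 measured members of the carnitine carrier and its closest relatives were above 0 under each scaling tried. Slc25a20, which brings acylcarnitines into the matrix for fatty acid oxidation, had 25.05 CPM in the p65-null library against 13.4 CPM in the wild-type library. Its log2 ratio was 0.91 (0.68 to 1.13), reached 1.019 with upper quartile scaling and was 0.69 when composition-adjusted. The carnitine palmitoyltransferases on either side of it, Cpt1a and Cpt2, had log2 ratios of 0.36 and 0.88, and carnitine acetyltransferase, Crat, of 0.46. Composition-adjusted these were 0.28, 0.55 and 0.03, and the shift of -0.47 with ribosomal protein scaling exceeds the values of Cpt1a and Crat. Of the acyl-CoA dehydrogenases, which start each round of oxidation, Acadvl was 2.02-fold (1.91 to 2.15) higher in p65-null cells, and Acadl and Acadm were at 0.65 and 0.68. Slc25a47, a liver carrier, was at 0.56 (-0.03 to 1.14), on 52.5 fragments in the p65-null and 50 in the wild-type library, and at 0.0035 when composition-adjusted.

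Slc25a45 (NM_134154, chromosome 19, 5877801 to 5885768), a relative of the carnitine carrier, had 75.5 fragments in the p65-null library against 15 in the wild-type library, or 4.98 CPM in p65-null against 0.708 CPM in wild-type cells. It was 7.04-fold (4.01 to 13.2) higher in p65-null cells with a composition-adjusted log2 ratio of 2.46. The gene lies 229.7 kilobases beyond the end of Rela on the same chromosome. Between them 11 other genes were measured, 0 of them 2-fold or more higher and 1, the non-coding RNA gene Neat1, 2-fold or more lower, and their log2 ratios ran from -1.06 to 0.58 with a median of -0.19. The nearest measured neighbour, Frmd8, was at the upper end of this range, at 0.58 (0.45 to 0.70). The sources used here do not say how the p65-null allele was made or where its flanking chromosome came from, and their part in the value of Slc25a45 was not tested.

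The iron carriers are the mitoferrins, which supply haem and iron-sulphur cluster synthesis. Slc25a28, or mitoferrin 2, the form of non-erythroid cells, had 21.5 CPM in the p65-null library and 21.0 CPM in the wild-type library, a log2 ratio of 0.03 (-0.18 to 0.24). Slc25a37, or mitoferrin 1, which is best known from developing red cells, had 12.9 CPM in the p65-null library against 23.1 CPM in the wild-type library, a log2 ratio of -0.84 (-1.08 to -0.59). Composition-adjusted, Slc25a28 was at -0.52 and Slc25a37 at -0.75, and the difference between them was 0.23, beside 0.87 unadjusted. Slc25a28 was the more abundant per kilobase in both libraries. Of the glutathione carriers, the abundant Slc25a39 was at 0.32 (0.25 to 0.38) and Slc25a40, with 1.40 CPM per kilobase in the p65-null and 2.56 CPM per kilobase in the wild-type library, at -0.87 (-1.33 to -0.43). The transcripts of this pair differ in GC content, 59.7% for Slc25a39 and 39.7% for Slc25a40, and composition-adjusted they were at -0.24 and 0.05.

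Among relatives of the uncoupling proteins, Slc25a30 had 19.9 CPM in the p65-null library against 36.5 CPM in the wild-type library, a log2 ratio of -0.87 (-1.07 to -0.68). Slc25a14 was at -0.12 (-0.50 to 0.26) and Slc25a27 at 0.02 (-0.93 to 0.94), so neither differed beyond counting error. Slc25a35 had 10 fragments in the p65-null and 2 in the wild-type library and shares 1151 exonic bases with Rangrf on the opposite strand, which had 199 in the p65-null and 824 in the wild-type library. Slc25a34 had 0 in the p65-null and 2 in the wild-type library. Both were under the expression minimum.

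The carriers with no assigned substrate included the largest difference among the measured carriers. Slc25a43 (NM_001085497, X chromosome, 36743570 to 36777307) had 51 fragments in the p65-null library, 3.37 CPM, and 0 in the wild-type library. With the wild-type library set to a floor of 3 fragments the ratio was 23.8, a log2 ratio of 4.57. The exact counting interval for these fragments starts at 18.7 with the scaling used here. Scaling to ribosomal protein genes put the log2 ratio at 4.10. The gene lies 18.3 kilobases before Slc25a5, which went the other way. Within 200 kilobases of the pair, 6 other genes were measured, 0 of them higher and 2 lower by 2-fold or more, with log2 ratios from -1.45 to 0.35. The libraries differed in sex-linked RNA, since Xist, which silences an X chromosome in female cells, was counted at 2 fragments in p65-null and 956 in wild-type cells, and the Y-linked Kdm5d at 207 in p65-null and 0 in wild-type cells. The 391 measured genes of the X chromosome had a median log2 ratio of -0.45, beside -0.03 over all measured genes. Of these 391, 27 were higher and 112 lower by 2-fold or more, where 12.2% and 13.7% of all measured genes were. The part of these differences in the values of the X-linked carriers Slc25a43, Slc25a5, Slc25a14 and Slc25a53 was not tested. Slc25a53, with 15 fragments in the p65-null and 35 in the wild-type library, was at -0.74 (-1.72 to 0.17).

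Slc25a46 (NM_026165, chromosome 18, 31580164 to 31610532) is an outer membrane member that takes part in mitochondrial fusion and fission rather than in transport. It was counted at 147 fragments in p65-null cells and 559.5 in wild-type cells, or 9.70 CPM in p65-null against 26.4 CPM in wild-type cells. It was 2.72-fold (2.26 to 3.28) lower in p65-null cells with a composition-adjusted log2 ratio of -0.53. It shares 383 exonic bases with the annotated gene B930094E09Rik on the opposite strand.

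**Figure D3:**
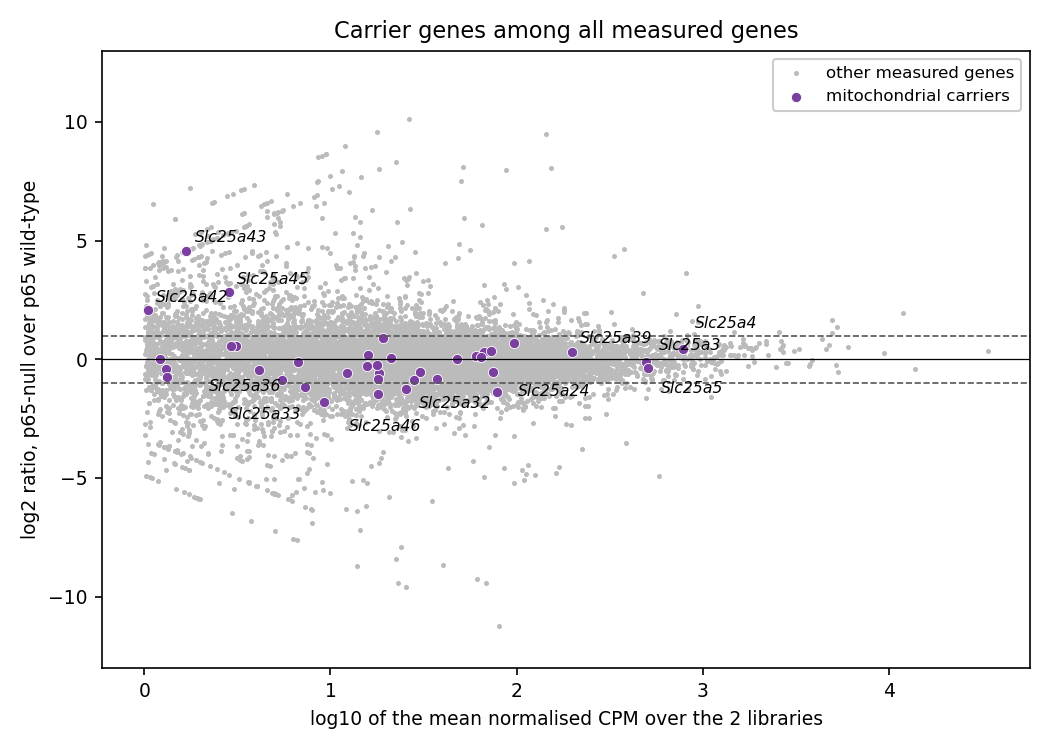
The 38 measured carriers (purple) among all 12135 measured genes (grey), by the log10 of the mean normalised CPM and the log2 ratio of p65-null over wild-type. Slc25a4, Slc25a3 and Slc25a5 lie within the dashed lines that mark 2-fold, and no member outside them has a mean above 79.0 CPM; ratios of genes with 0 fragments in 1 library, such as Slc25a43, are drawn at the floor of 3 fragments.

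Transcript composition moved with these values. Over the 38 measured carriers the Spearman correlation between the log2 ratio and the GC content of the transcript was 0.64, and over 11989 measured genes with a matched transcript it was 0.44. These are descriptions across genes of the same 2 libraries. The 5 members 2-fold or more lower had a median GC content of 41.2%, the 30 within 2-fold of 50.02% and the 3 that were higher of 55.4%. Composition-adjusted, 2 of the carriers were 2-fold or more lower, Slc25a33 and Slc25a25, and the same 3 as before were higher by that much. Slc25a24, Slc25a46, Slc25a32 and Slc25a36 then lay between -0.79 and -0.28.

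**Figure D4:**
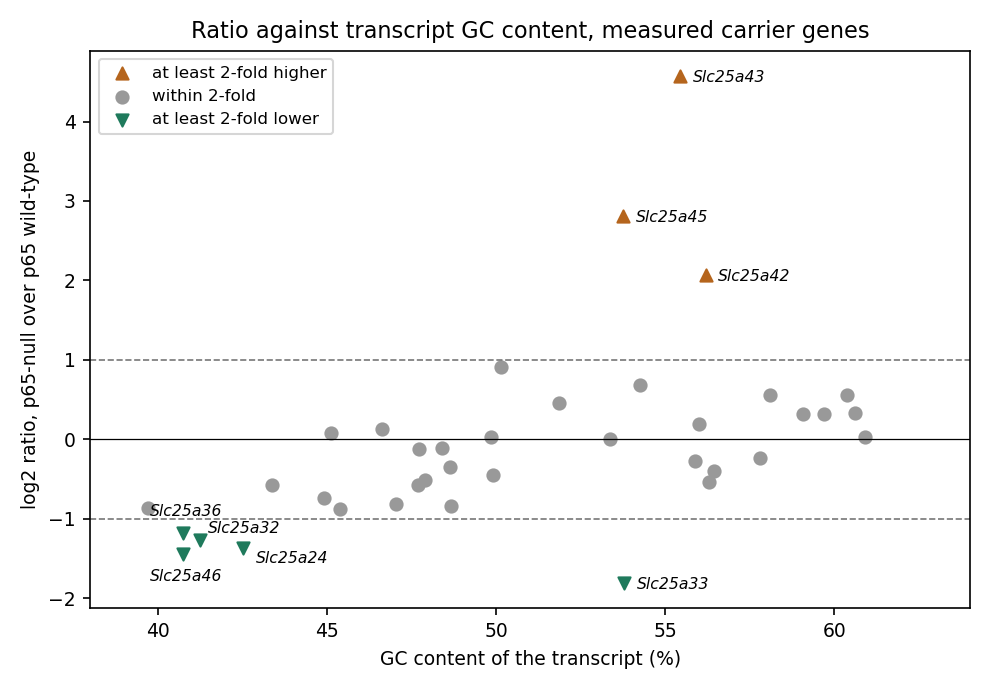
log2 ratio of p65-null over wild-type against the GC content of the transcript, in percent, for the 38 measured carriers. Of the members 2-fold or more lower (downward triangles), 4 lie between 40.7% and 42.52% and Slc25a33 at 53.8%, and the 3 that were higher (upward triangles) lie between 53.8% and 56.2%.

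Genes that work beside the carriers were taken from lists chosen for their function. Their counts stand beside 12.2% of all measured genes that were higher and 13.7% that were lower by 2-fold or more. Of 19 measured genes for other carriers and channels of the mitochondrial membranes, 1 was higher and 1 lower by 2-fold or more (5.26% each way). Their median log2 ratio was 0.36, or 0.17 when composition-adjusted and -0.11 when scaled to ribosomal protein genes. The higher one was Sfxn4, a sideroflexin, at 3.49-fold (2.19 to 5.70). The subunits of the pyruvate carrier, Mpc1 and Mpc2, were at -0.09 (-0.32 to 0.14) and 0.93 (0.77 to 1.10).

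Of 16 genes of the machinery that imports carrier proteins into the inner membrane, 0 were higher and 2 lower by 2-fold or more. The share lower was 12.5%, close to the 13.7% over all measured genes, and the median log2 ratio was -0.22. Tomm70a, the outer membrane receptor for carrier precursors, had 93.6 CPM in the p65-null library against 255 CPM in the wild-type library and was 2.72-fold lower (2.57 to 2.89), and its composition-adjusted log2 ratio was -0.48. Timm8a1, a chaperone of the space between the membranes, was 2.43-fold lower (2.01 to 2.94) and at -1.34 when adjusted. Timm8a1 is X-linked, and the measured genes of the X chromosome had a median log2 ratio of -0.45. The part of the sex-linked differences in its value was not tested. Timm22, the insertion channel, was at 0.63 (0.48 to 0.77).

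Enzymes that use the carried substrates had 4 of 49 measured members higher (8.16%) and 7 lower (14.3%) by 2-fold or more. Over all measured genes these shares were 12.2% and 13.7%. The median log2 ratio of the enzymes was 0.15, or -0.06 when composition-adjusted and -0.32 when scaled to ribosomal protein genes. The higher ones were Acadvl, Bcat2, Bckdha and Bckdhb, given above. Besides Got1, the lower ones included the coenzyme A synthesis gene Pank3 at 2.93-fold, the mitochondrial NAD kinase gene Nadk2 at 2.17-fold, the citric acid cycle gene Idh3a at 2.17-fold, the glutathione synthesis gene Gclc at 2.07-fold and the transhydrogenase gene Nnt at 2.06-fold. Composition-adjusted, Pank3, Nadk2, Idh3a, Gclc and Acadvl lay within 2-fold, at -0.44, -0.59, -0.84, -0.998 and 0.59. Of 11 measured regulators of mitochondrial biogenesis 0 were higher and 1 lower by 2-fold or more, Gabpa, a subunit of an ETS-type factor, at 2.42-fold (2.19 to 2.69) and -0.46 when adjusted. The share of regulators lower was 9.09%, beside 13.7% of all measured genes. The median of the regulators was -0.47, or -0.27 when composition-adjusted. Tfam, the mitochondrial DNA packaging factor, was at -0.53 (-0.69 to -0.38), or -0.12 when composition-adjusted. The RNA of citrate synthase, Cs, was at -0.13 (-0.17 to -0.09), or -0.25 when composition-adjusted.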

How the data were processed

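RNA was sequenced in 1 p65-null and 1 wild-type library. The tools listed in the submitters' processing notes, without roles, were STAR 2.4, bcl2fastq 2.16, edgeR and HOMER, with mm10 as the build; how reads were counted and filtered was not stated. The deposited values are a scaled signal, although the table is named as raw counts: they are not whole, and both columns share 1 total. Within each column they were whole multiples of 1 step, 0.587 (p65-null) and 0.436 (wild-type), for 100% of 13359 and 12966 values of up to 1000 units (tolerance 0.0055). Even multiples were in excess (75.7% and 72.8% of values of 1 to 20 steps), so 2 steps were taken as 1 fragment. The plan had assumed counts; with 1 library of each genotype there is no residual spread, so a count test could not be fitted and ratios were used as planned.

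Of 16881 transcripts, 16743 were matched to symbols through RefSeq (GRCm38.p6) and 83 through GENCODE M21, which also gave lengths, GC content and coding sequences for the pair comparisons, planned on proteins. Coordinates follow GRCm38, which mm10 names too. Libraries were scaled by TMM in edgeR 4.0.16 (R 4.3.3), with factors of 0.981 for p65-null and 1.019 for wild-type. A library at 0 was set to 3 fragments. The composition adjustment was a loess fit (span 0.3) of the log2 ratio on GC content, then on length. The ratio step was tested on simulated counts. Alternatives were size factors from DESeq2 1.42.0, upper quartile factors, total counts, ribosomal protein scaling, other minima, a prior count, that adjustment, the interval end and the deposited values.

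The members and lists were chosen with earlier results of these data known. Members are named, and of the other lists the measured genes at least 2-fold apart; a few genes counted in these totals are not reported here by name. Mdh1, Mdh2, Got2, Cpt1a, Cpt2, Crat, Acadl, Acadm, Mpc1, Mpc2, Timm22, Tfam, Cs, Frmd8, Neat1, the single cell type markers and the overlapping genes were named after their values were seen.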

Additional observations from a re-analysis of the deposited data

How the results depend on the processing

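No paired analysis was possible because each genotype had 1 library, and for the same reason no library could be left out. The carriers' median log2 ratio stayed below 0 under all 9 alternatives that give one, from -0.71 to -0.07. Scaling to ribosomal protein genes moved the median of all genes by -0.47, to -0.50, and upper quartile factors by 0.11, to 0.088. Total counts and the deposited values gave -0.083, no expression minimum -0.0024 and the composition adjustment -0.089. Ribosomal scaling put 13 carriers lower by 2-fold or more and 15 apart by that much (median -0.71), beside 5 and 8, and over all genes 834 higher and 3306 lower, beside 1475 and 1667. It also put Rela at -3.26, the import machinery at 4 genes past 2-fold with a median of -0.69, the enzymes at a median of -0.32 and the regulators at 4 genes with a median of -0.94. The median of the other membrane carriers turned from 0.36 to -0.11. The composition adjustment left 2 carriers lower and 5 apart, Rela at -3.26, and 1, 1 and 6 genes past 2-fold among the other membrane carriers, the import machinery and the enzymes. With no minimum 5 carriers and 2230 genes were higher and 2 regulators apart; with a minimum of 5 CPM 0 carriers and 924 genes were higher, 5 carriers apart and 1 other membrane carrier apart. Upper quartile factors put 4 other membrane carriers past 2-fold. The interval end left 2069 genes apart, 965 higher and 1104 lower, and 5 enzymes. Except where an alternative drops or adds genes by its own construction, the cause was not tested. Low counts limit Slc25a23, Slc25a27, Slc25a42, Slc25a43, Slc25a53 and the 7 members under the minimum.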
